A study of Mus musculus with 1617 samples.

Results

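Early postnatal mouse microglia with the proliferation gene Mki67 detected were compared with microglia of the same brain regions that listed it at 0. Single brain macrophages had been sorted as CD45+F4/80+CD11b+Ly6C- and their mRNA sequenced one cell at a time on a microfluidic chip (Fluidigm C1). At postnatal day 7 (P7) the labels give microglia from the hippocampus, the thalamus and the visual cortex, 110 cells of the 1617 in the series. No strain, sex, treatment or animal is given for these cells, so each region counted as 1 sample. Cells with Mki67 at 1 TPM or more were called Mki67-positive, and cells at exactly 0 TPM were called Mki67-zero. TPM is a gene's share of a cell's transcripts, corrected for gene length and scaled to one fixed total. The hippocampus had 12 positive and 20 zero cells, the thalamus 15 and 22, and the visual cortex 9 and 20, in all 36 against 62. The other 12 cells, between 0 and 1 TPM, were left out.

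Mki67 encodes a protein that coats mitotic chromosomes, and it is made in cells that are in the division cycle and lost from resting cells. Its transcript is highest from late S phase to mitosis, and it belongs to a large group of genes for kinases, spindle, kinetochore and chromosome proteins that are switched on together for mitosis. Genes for replication origin licensing and for the start of S phase are switched on earlier, mainly through E2F factors. Microglia, the resident macrophages of the brain, multiply by division of local cells in the first weeks after birth.

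Both groups were chosen by the measured Mki67 level, so its values are a description. In the positive cells it ranged from 1.53 through a median of 152.5 to 7744 TPM in the hippocampus, from 1.07 through 173.4 to 568 in the thalamus, and from 18.1 through 67.9 to 588 in the visual cortex. Mki67 was under 10 TPM in 7 of the 36 positive cells and at 100 TPM or more in 18. The lowest positive cells held 1.07 and 1.53 TPM, and the highest cells left out held 0.87 and 0.49 TPM. The positive share of all cells was 35.3% in the hippocampus (exact 95% interval 19.7 to 53.5%), 34.1% in the thalamus (20.5 to 49.9%) and 28.1% in the visual cortex (13.7 to 46.7%). These Clopper-Pearson intervals overlap throughout and cover counting error over cells only, and any cells that share an animal are not independent.

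All 36 positive and all 62 zero cells had the microglial receptor gene P2ry12 at 1 TPM or more, the level at which a gene is called seen here. Markers of other cell types were summed per cell over each list. The 12 listed neuron markers stayed under 1 TPM in every positive and zero cell. Single cells reached more for the astrocyte list (up to 530 TPM in positive and 2591 in zero cells), the endothelial list (442 and 1601), the neural progenitor list (265 and 941) and the oligodendrocyte lineage list (372 and 711). The medians of these 4 lists were 0 in the positive cells and at most 1.17 TPM in the zero cells. The monocyte list reached 476 TPM in positive and 17.1 in zero cells, and the B cell list, with medians of 99.1 and 259 TPM, reached 5635 and 7857. The part of such transcripts in the results was not tested. The median number of genes seen per cell was 2745 in positive and 2224 in zero cells of the hippocampus, 2696 and 2285 in the thalamus, and 1921 and 2086 in the visual cortex. The positive cells thus held more genes in a pair of regions and fewer in the third, and the part of that in the results was not tested. TPM keeps no read depth, so the depth is unknown. A gene listed at 0 may be a failed estimate, since genes that every cell uses, such as Gapdh, were also listed at 0 in some cells.

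For each gene the log2 ratio of mean TPM, after adding 1 TPM to each mean, was taken within each region and averaged over the 3 regions. A gene was measured if its mean reached 5 TPM in either group. It was called higher or lower if the average ratio was at least 1.5-fold and had the same sign in all 3 regions. With 1 sample per region there is no test, and every call is a description of these cells. Of the 9238 measured genes, 709 were called higher in the positive cells, which is 7.67%, and 1432 were called lower, which is 15.5%. The median log2 ratio of all measured genes was -0.40. Within regions it was 0 in the hippocampus, -0.14 in the thalamus and -0.31 in the visual cortex. Levels of lists are to be read against these values, and counts of calls against the shares of 7.67% and 15.5%. The split of calls changed with the measure and with the cells taken. It was 755 higher and 517 lower for the difference of mean log2(TPM + 1). It was 947 and 952 when as many zero as positive cells were taken in each region, a comparison chosen after the data were seen. The zero cells with the lowest replicate numbers were kept, so cell number and choice of cells cannot be told apart.

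Genes of mitosis were higher in the positive cells of all 3 regions. Of the 120 measured genes in 4 lists (mitotic cyclins and kinases, kinetochore, spindle, and chromosome condensation), 70 were called higher and 0 lower, with a median log2 ratio of 3.54. The size of that median depended on the measure. It was 1.22 for the difference of mean log2(TPM + 1), where all measured genes stood at 0.050. It was 1.76 with 10 TPM and 5.40 with 0.1 TPM added to each mean, beside -0.20 and -0.53 for all genes. Their region medians were 3.70 in the hippocampus, 4.31 in the thalamus and 1.59 in the visual cortex. All but 4 of the 120 were seen in a larger share of positive than of zero cells, as were 5479 of all 9238 measured genes. The rule, Mki67 at 1 TPM or more, uses a gene of this programme, so a higher level of its partners describes how these cells group and is not independent evidence.

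Among the mitotic kinases and regulators, 18 of 28 measured genes were called higher and 0 lower, with a median log2 ratio of 4.18. Cdk1, the kinase that drives entry into mitosis (chr10:69335146-69352938, minus strand, GRCm38), was seen in 19 of 36 positive cells (52.8%, exact 95% interval 35.5 to 69.6%). It was seen in 4 of 62 zero cells (6.45%, 1.79 to 15.7%). Its level ran from 0 through a median of 26.2 to 4094 TPM in positive cells of the hippocampus, from 0 through 0 to 1295 in the thalamus, and from 0 through 4.27 to 2157 in the visual cortex. In the zero cells its median was 0 in each region, and its highest values were 122.15, 215.4 and 0 TPM in the same order. The groups overlapped, because many positive cells were also listed at 0, but all cells above 215.4 TPM were positive. The average log2 ratio of Cdk1 was 6.29 ± 2.26 (SD over 3 regions). Pbk, a mitotic kinase gene, had the largest average ratio among the 10 genes named by rank, 7.97 ± 0.36 (SD, n = 3 regions). It was seen in 10 positive cells, up to 2737 TPM, and in 3 zero cells, none above 1.87 TPM. The spindle checkpoint kinase gene Bub1 (6.15 ± 0.68) was seen in 10 positive and in 0 of 62 zero cells (at most 4.84% if a count of 0 is read as under 3 cells, and 5.78% as the exact 95% upper bound). Aurka, the centrosome kinase gene, had an average ratio of 6.09, and Bub1b, of the same checkpoint, 5.69.

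**Figure D1:**
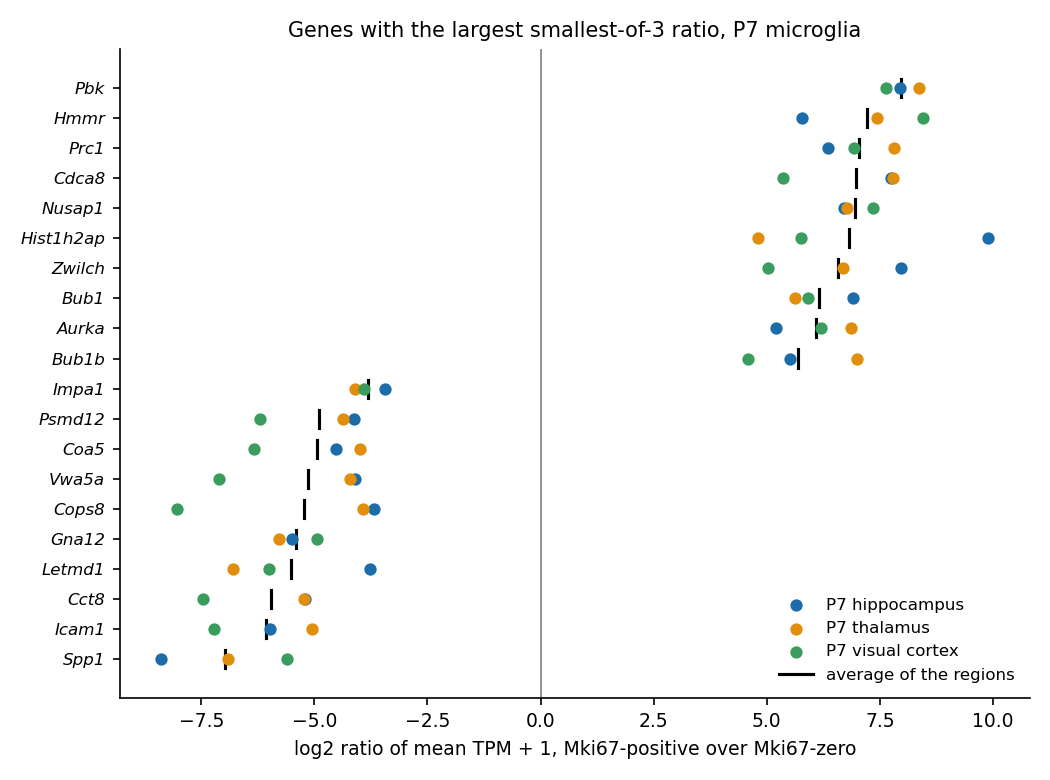
Log2 ratio of mean TPM + 1 (x axis), Mki67-positive over Mki67-zero cells, for the 10 genes in each direction with the largest smallest-of-3 ratio at P7; points are the 3 regions and black bars their average. The genes named higher lie between 4.58 and 9.90 in every region, and those named lower lie between -8.39 and -3.44. Some ratios rest on few cells. In the visual cortex Aurka and Hist1h2ap were seen in 1 of 9 positive cells, and Pbk, Nusap1 and Bub1b in 2.

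The spindle and cytokinesis list had 24 of 37 measured genes called higher and 0 lower, with a median of 3.83. Prc1, which bundles the microtubules of the central spindle, was seen in 7 of 12, 7 of 15 and 3 of 9 positive cells of the hippocampus, thalamus and visual cortex. Its highest values there were 422, 1801 and 574 TPM, and no zero cell held more than 1.31 TPM. Nusap1, a spindle microtubule gene, was seen in 14 positive cells and 1 zero cell, and its average log2 ratio was 6.95 ± 0.35. Hmmr, a spindle assembly gene, reached 3031 TPM in a positive cell of the visual cortex and at most 3.91 TPM in any zero cell.

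In the kinetochore and centromere list, 20 of 36 measured genes were called higher and 0 lower, with a median of 3.15. Cenpf, a kinetochore protein gene (chr1:189640606-189688086, minus strand, GRCm38), followed Mki67 most closely by shares of cells among the 37 genes named higher. It was seen in 20 of 36 positive cells (55.6%, 38.1 to 72.1%) and in 1 of 62 zero cells (1.61%, 0.0408 to 8.66%). In the positive cells it ran from 0 through 2.78 to 320 TPM in the hippocampus, from 0 through 40.8 to 610 in the thalamus, and from 0 through 0.39 to 257 in the visual cortex. A single hippocampal zero cell held 99.8 TPM, and no other zero cell reached 1 TPM. By the same measure the next genes were Cdk1, Cdca8, Prc1 and Cenpa, with share differences of 46.3, 42.8, 42.4 and 42.4 percentage points against 53.9 for Cenpf. Cdca8 belongs to the complex that corrects chromosome attachment, and Cenpa is the histone of the centromere. Birc5, of the same complex as Cdca8, had log2 ratios of 7.79, 7.66 and 1.35 in the 3 regions, so its visual cortex value stood apart.

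Chromosome condensation and cohesion genes were called higher in 9 of 20 measured cases and lower in 0, with a median of 3.08. The condensin gene Ncapd2 had ratios of 7.99 in the hippocampus and 8.45 in the thalamus but 1.01 in the visual cortex. The other condensin gene named, Ncapg, had an average of 5.50 and was seen in 14 positive and 2 zero cells. Across these lists the visual cortex, which had 9 positive cells, gave the lowest medians, at 0.70 for the kinetochore list and 0.20 for condensation. The difference between regions was not tested.

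**Figure D2:**
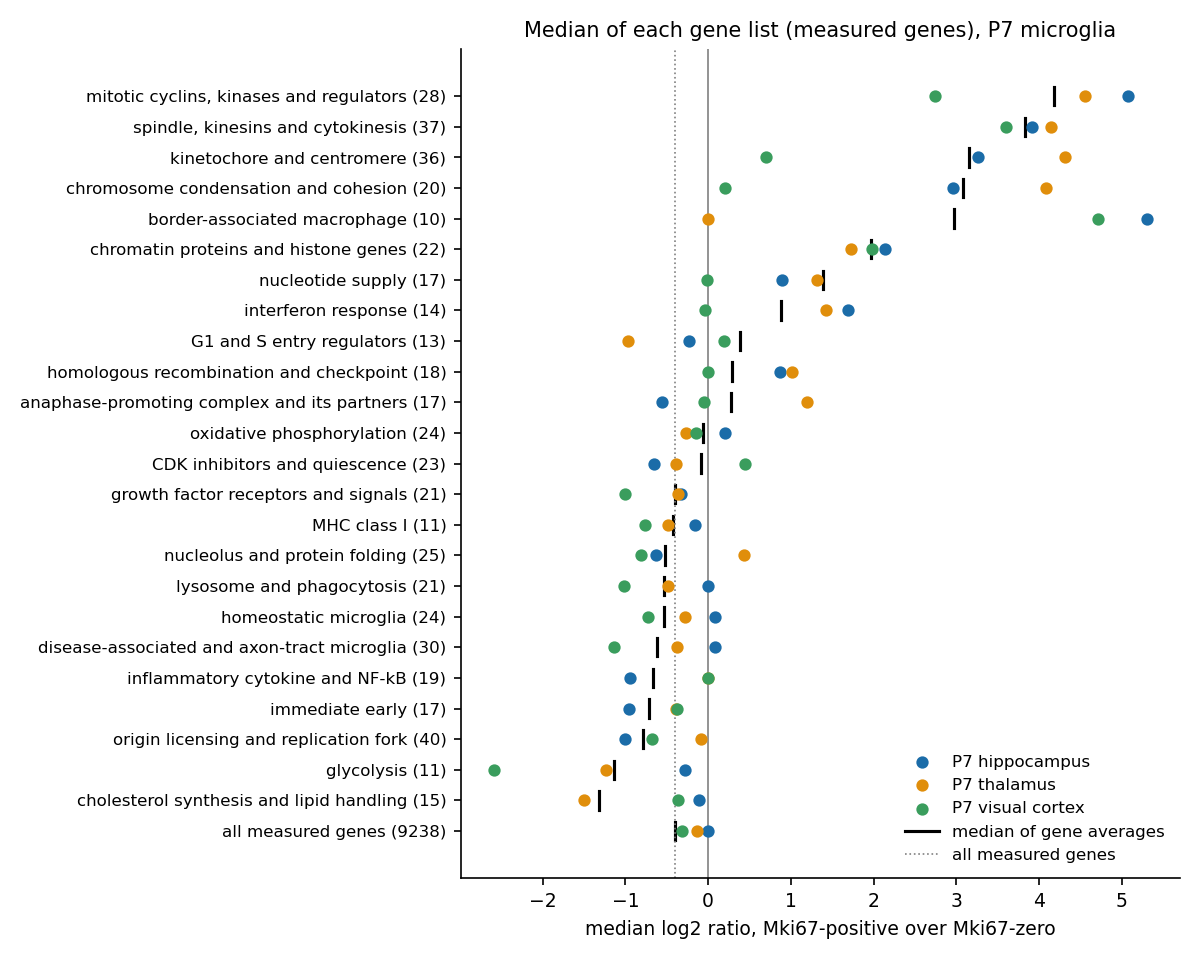
Median log2 ratio (x axis) of the measured genes at P7 for the 24 lists with at least 10 of them, number of measured genes in brackets; points are the medians within each region, black bars the median of the gene averages, and the dotted line is all measured genes at -0.40. The 4 mitosis lists lie between 3.08 and 4.18, border-associated macrophage genes at 2.97 with region medians from 0 to 5.30, the chromatin list at 1.97, and origin licensing and replication fork genes at -0.79.

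Proteins that package DNA formed the next group. Of 22 measured chromatin and histone genes 11 were called higher and 0 lower, with a median of 1.97 and with region medians from 1.73 to 2.14. H2afz, a histone variant gene (H2A.Z), was the most widely seen of them, in 31 of 36 positive and 39 of 62 zero cells. Its median was 804 TPM in positive and 45.2 in zero cells of the hippocampus, 989 and 64.5 in the thalamus, and 1397 and 11.96 in the visual cortex. The highest zero cells, at 1327 to 1887 TPM, lay inside the range of the positive cells, which reached 5142 to 6650 TPM. The average log2 ratio was 2.45 ± 0.29 (SD, n = 3 regions). Hist1h2ap, a gene of the replication-dependent H2A histones, was seen in 14 positive cells and 1 zero cell. Copies of this histone family are close in sequence, so the reads could have been split among them and its level is uncertain. Top2a, the topoisomerase that untangles chromosomes, was named after its values were seen. It stood at 508 TPM in positive and 27.5 in zero cells on average over regions, and was seen in 58.3% and 17.7% of them.

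The genes that license and copy DNA did not follow the mitosis lists. Of 40 measured genes of origin licensing and the replication fork, 2 were called higher (Mcm10 and Nasp) and 9 lower (Mcm2, Mcm4, Mcm7, Gins2, Rfc2, Pola2, Rpa2, Dnmt1 and Dna2). Their median log2 ratio was -0.79 against -0.40 for all genes. It was 0.093 for the difference of mean log2(TPM + 1) and -0.045 with equal cell numbers, so no direction is given for the list. Mcm2, a subunit of the replicative helicase, was listed at 0 in all 36 positive cells (at most 8.33% if a count of 0 is read as under 3 cells) and seen in 4 of 62 zero cells, up to 1816 TPM. Pcna, the sliding clamp, was seen in 18 of 36 positive and 27 of 62 zero cells. Its log2 ratios were -2.63, 0.22 and 2.03, and a single hippocampal zero cell held 34413 TPM. Nasp, a histone chaperone gene, was higher on average (1.82 ± 1.17), while its share of cells was 69.4% in the positive and 74.2% in the zero group. Apart from Nasp, the genes of this paragraph were named outside the rule, after their values were seen.

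The counts of the next lists are to be read beside 7.67% of all measured genes called higher and 15.5% lower. The nucleotide supply list had 3 of 17 measured genes higher and 3 lower. Thymidine kinase, Tk1, was seen in 16 positive and 6 zero cells, with ratios of 8.76, 5.01 and 1.32. Rrm2, the regulated subunit of ribonucleotide reductase, was seen in 12 positive cells and 1 zero cell. In the G1 and S entry list 3 of 13 were higher (Ccnd3, E2f2 and E2f8) and 3 lower (Ccne2, Rbl1 and Cdca7). Of the anaphase-promoting complex and its partners 3 of 17 were higher and 1 lower. The ones higher included Ube2c, which passes ubiquitin to mitotic cyclins (average 5.77), and Fbxo5, an inhibitor of the complex (3.38). Of 18 recombination and checkpoint genes 3 were higher and 1 lower. Over all 10 cell cycle lists, 95 of 247 measured genes were called higher and 17 lower, with a median of 1.97.

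Counting genes in single cells, split by Mki67 as before, showed the same contrast without any mean. Of the genes in the 4 mitosis lists, positive cells held from 6 through a median of 37 to 96 in the hippocampus, from 5 through 30 to 78 in the thalamus, and from 8 through 18 to 69 in the visual cortex. Zero cells held from 4 through 11 to 21, from 2 through 11.5 to 14, and from 3 through 7 to 32. The groups overlapped, but 7 of 12, 12 of 15 and 4 of 9 positive cells exceeded every zero cell of their region. That made 23 of 36 positive cells. The count was 15 of the 18 cells with Mki67 at 100 TPM or more and 8 of the 18 below it. The remaining 13 positive cells lay inside the range of the zero cells, with as few as 5 mitosis genes. These counts were not adjusted for the number of genes seen per cell, with medians of 2597 in positive and 2162 in zero cells. The positive cell with 96 mitosis genes had 4473 genes seen. The cell with the highest Mki67, 7744 TPM, had 715 genes seen and 6 mitosis genes.

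Replication genes were spread over both groups. Of the 46 listed, the median number seen was 6.5 in positive and 4 in zero cells of the hippocampus, 7 and 3.5 in the thalamus, and 4 and 3 in the visual cortex. At least 10 of them were seen in 8 of 36 positive and in 12 of 62 zero cells. The 8 positive cells held from 14 to 96 mitosis genes, with a median of 62. The 12 zero cells held from 5 to 21, with a median of 14. The highest zero cells of the 3 regions held 20, 19 and 18 replication genes, and the highest positive cells held 15, 19 and 7. At least 10 replication genes with at most 21 mitosis genes were found in 12 zero cells and 1 positive cell, limits that were chosen after the data were seen. The limit of 21 is the highest count in those 12 zero cells, so all of them passed by the choice of limit. The number of genes seen per cell had a median of 2934 in these 8 positive and 2448 in these 12 zero cells.

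**Figure D3:**
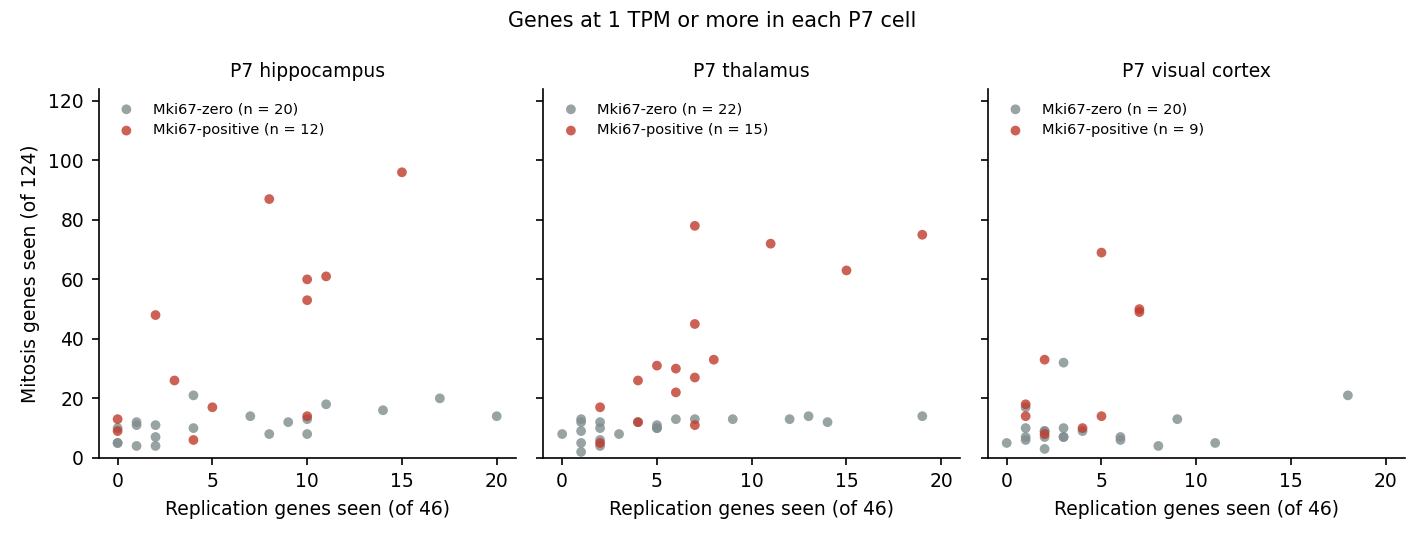
Number of genes at 1 TPM or more in each P7 cell, from the replication list of 46 (x axis) and the 4 mitosis lists together (y axis); red points are Mki67-positive and grey points Mki67-zero cells. Zero cells reach 20 replication genes but at most 32 mitosis genes, while positive cells reach 96 mitosis genes.

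Promoters of the genes named higher are shown because the mitosis genes were higher together. Late cell cycle promoters are known for a pair of elements, the cell cycle genes homology region with the core TTTGAA and upstream CCAAT boxes, and early ones for E2F sites. The stretches below are RefSeq promoters on GRCm38.p6, from base -120 to base -1 before the start, in the direction of the gene. Capitals mark TTTGAA, which reads TTCAAA when it lies on the other strand. They also mark CCAAT, which then reads ATTGG, and the E2F-type words, TTTGGCGC in Mcm6 and the other-strand form GCGGGAAA in Gins3. The first 6 are genes of the higher direction with a whole TTTGAA in this stretch, and the last pair, Mcm6 and Gins3, are helicase genes of the replication list with an E2F-type word in it.
Cdk1: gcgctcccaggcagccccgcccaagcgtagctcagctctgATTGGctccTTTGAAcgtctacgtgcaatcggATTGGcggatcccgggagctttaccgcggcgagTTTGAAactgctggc
Ube2c: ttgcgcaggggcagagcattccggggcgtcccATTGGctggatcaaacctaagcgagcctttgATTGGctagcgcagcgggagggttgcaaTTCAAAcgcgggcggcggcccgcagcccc
Ncapg: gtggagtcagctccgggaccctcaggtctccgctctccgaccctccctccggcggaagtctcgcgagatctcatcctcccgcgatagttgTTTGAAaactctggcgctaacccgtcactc
Kif22: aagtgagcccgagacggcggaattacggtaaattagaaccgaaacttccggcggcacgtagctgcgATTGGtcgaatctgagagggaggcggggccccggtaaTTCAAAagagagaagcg
Hist1h2ae: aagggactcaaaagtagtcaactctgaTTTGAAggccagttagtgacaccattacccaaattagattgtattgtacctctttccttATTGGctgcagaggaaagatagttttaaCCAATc
Gapdh: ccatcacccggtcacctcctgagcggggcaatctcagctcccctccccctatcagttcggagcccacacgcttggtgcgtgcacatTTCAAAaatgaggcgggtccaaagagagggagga
Mcm6: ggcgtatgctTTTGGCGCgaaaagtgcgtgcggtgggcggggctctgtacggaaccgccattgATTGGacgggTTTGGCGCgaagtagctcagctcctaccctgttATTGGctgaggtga
Gins3: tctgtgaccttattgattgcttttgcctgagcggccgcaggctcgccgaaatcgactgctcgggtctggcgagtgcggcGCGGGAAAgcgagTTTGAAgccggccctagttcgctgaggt
They lie at chr10:69352913-69353032 (Cdk1, minus strand), chr2:164769809-164769928 (Ube2c, plus), chr5:45669805-45669924 (Ncapg, plus), chr7:127042421-127042540 (Kif22, a mitotic kinesin, minus), chr13:23571221-23571340 (Hist1h2ae, a histone H2A gene, minus), chr6:125165774-125165893 (Gapdh, minus), chr1:128359706-128359825 (Mcm6, minus) and chr8:95633439-95633558 (Gins3, plus). Cdk1 carries TTTGAA at -71 and -15, each downstream of a CCAAT on the other strand, at -80 and -48. Mcm6 carries TTTGGCGC at 2 places. Its own log2 ratios at P7 were -4.21, 0.41 and -1.10. Gins3 carries both the E2F-type word, at -41, and TTTGAA, at -28, and its average ratio was 1.69 ± 2.36. Gapdh, an enzyme of glycolysis with no CCAAT in this stretch, carries TTTGAA at -34, and its average ratio of 0.29 was short of a call.

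Over whole promoters, from 250 bases before to 50 after the start and on both strands, TTTGAA was present in 18.1% of 27025 RefSeq promoters and in 12.3% of the 6853 matched to measured genes. It was present in 20.4% of the 524 matched genes called higher and in 12.03% of the 1097 called lower. The share was 60.5% of the 81 matched cell cycle genes called higher and 13.1% of the 443 other genes called higher. Among the mitosis lists it was 71.4% for spindle genes, 62.5% for condensation, 11 of 22 for mitotic kinases and 38.7% for the kinetochore. It was 52.2% for chromatin genes and 16.7% for origin licensing and the fork. CCAAT was present in 40.2% of measured genes and in 64 of the 81 cell cycle genes called higher. The E2F-type words, TTTGGCGC and also TTTCCCGC, were present in 3.43% of measured genes, in 33.3% of the licensing and fork genes and in 6 of 15 G1 and S entry genes. Mitosis lists held them too, in 5 of 16 condensation genes, 3 of 31 kinetochore genes, 3 of 35 spindle genes and 0 of 22 mitotic kinase genes, 10.7% of the 4 lists together. A match describes letters in the window and shows no binding.

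Microglial identity genes lay near the background. Of 24 homeostatic microglia genes, all measured, 0 were called higher and 4 lower (P2ry12, P2ry13, Siglech and Slc2a5), with a median of -0.53 against -0.40 for all genes. The number of these genes seen per cell had medians of 20 in positive and 18 in zero cells of the hippocampus, 20 and 20 in the thalamus, and 17 and 17 in the visual cortex. P2ry12, the receptor by which microglia sense ADP, had medians of 3571 TPM in positive and 6679 in zero cells of the hippocampus, 6532 and 6702 in the thalamus, and 6306 and 8699 in the visual cortex. Its ranges overlapped almost wholly, and its log2 ratios were -1.09, -0.17 and -0.60. The neighbouring receptor gene P2ry13 had medians of 16.6 and 548 TPM, 124.55 and 837, and 7.85 and 419 in the same order, and an average log2 ratio of -1.47 ± 0.60. It was seen in 28 of 36 positive and 51 of 62 zero cells, so the groups differed in level more than in share. Siglech, a microglial lectin gene, was called lower at -0.60, but reached 0.26 when cells were rescaled by median ratios.

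**Figure D4:**
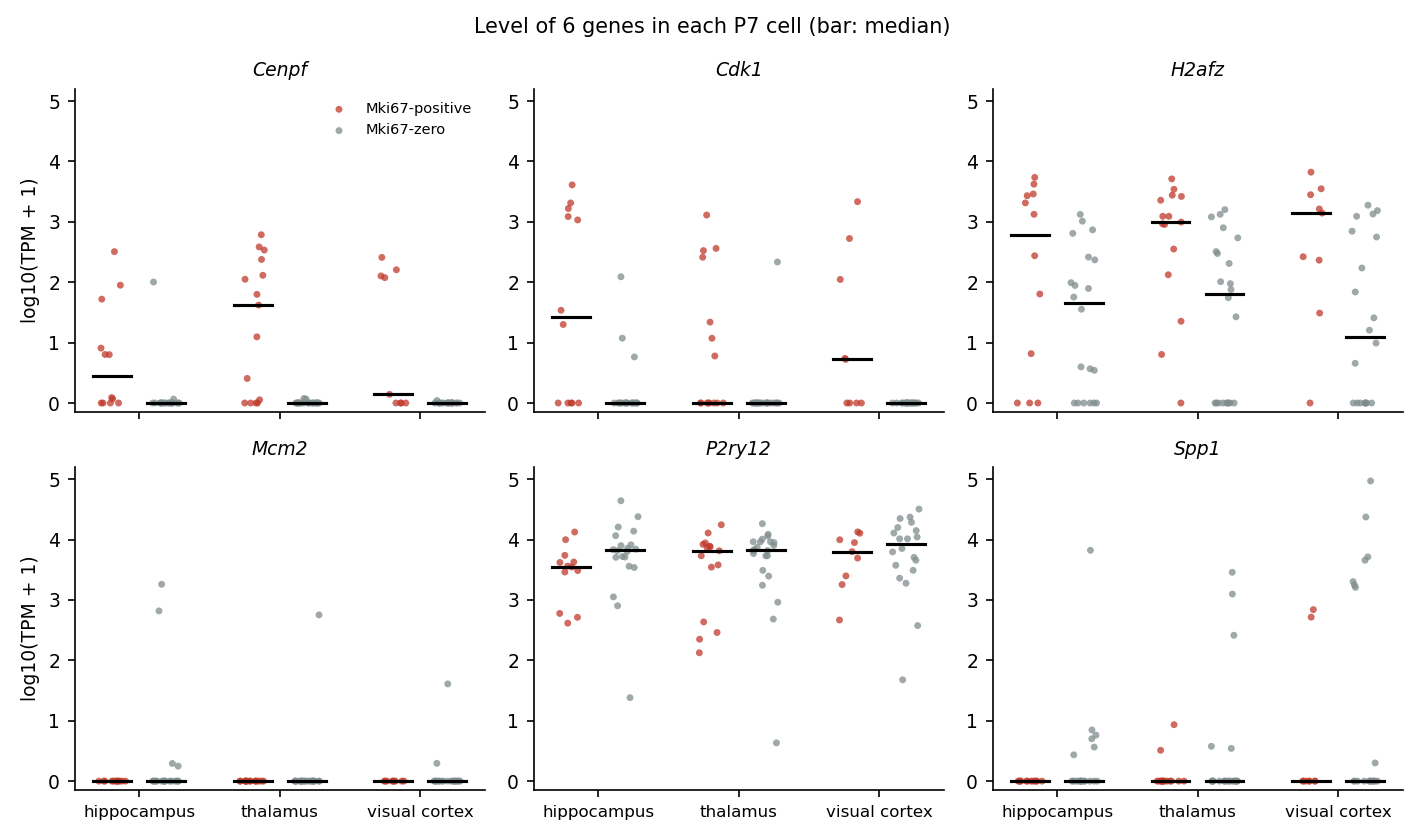
Level of 6 genes in each P7 cell on a log10(TPM + 1) axis, by region; red points are Mki67-positive cells, grey points Mki67-zero cells and bars are medians. Cenpf and Cdk1 are high mainly in positive cells, Mcm2 is listed at 0 in every positive cell, P2ry12 overlaps almost wholly, and Spp1 is high in few cells, most of them zero cells.

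Genes of disease-associated and axon-tract microglia, a state that young white-matter microglia share, were called lower in 8 of 30 measured cases. The call was higher in 1 (Lyz2, lysozyme). Of all measured genes 15.5% were called lower and 7.67% higher. The list had a median of -0.61 against -0.40 for all genes. Its region medians were 0.088 in the hippocampus, -0.37 in the thalamus and -1.14 in the visual cortex. Spp1, which encodes osteopontin (chr5:104435118-104441050, plus strand, GRCm38), had the largest negative average ratio among the genes named by rank. It was listed at 0 in all 12 positive cells of the hippocampus, reached 7.61 TPM in the thalamus, and was seen in 2 of 9 cells of the visual cortex, up to 691 TPM. In the zero cells it was seen in 6 of 20, 5 of 22 and 8 of 20, up to 6651, 2869 and 93477 TPM. The shares were 11.1% (3.11 to 26.1%) of positive and 30.6% (19.6 to 43.7%) of zero cells, intervals that overlap. A single zero cell of the visual cortex held 65.2% of all Spp1 in the zero group. The chemokine gene Ccl6 was seen in 9 positive and 22 zero cells, and its ratios were -0.90, -2.39 and -7.83.

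The other 9 genes named lower by rank belonged to different lists or to none and were seen in few positive cells. Icam1, an adhesion molecule gene of activated cells, was seen in 3 positive and 18 zero cells, up to 22.6 and 1944 TPM. Cct8, of the chaperonin that folds tubulin and actin, was seen in 11 and 30 cells, and 1 zero cell held 52.6% of its level in the zero group. Gna12, a G protein subunit gene, was seen in 8 positive (22.2%, 10.1 to 39.2%) and 28 zero cells (45.2%, 32.5 to 58.3%), with an average log2 ratio of -5.41 ± 0.42. The remaining genes, Impa1, Psmd12, Coa5, Vwa5a, Cops8 and Letmd1, had averages from -5.53 to -3.82 and were seen in 3 to 8 positive and 17 to 21 zero cells. The zero groups hold more cells than the positive groups. With equal cell numbers 695 of the 1432 genes called lower were again called lower, against 570 of the 709 called higher.

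Further lists held few genes each, and their calls are to be read beside the backgrounds of 7.67% higher and 15.5% lower. The immediate early genes were lower in 7 of 17 measured cases and higher in 1, with a median of -0.72; the lower ones were Egr1, Egr2, Ier2, Zfp36, Klf2, Klf4 and Rhob. Such genes encode transcription factors and other proteins made quickly after stimulation. Interferon response genes were higher in 3 of 14 cases (Irf7, Bst2 and Rtp4) and lower in 0, and Irf7, a transcription factor of that response, was seen in 11.1% of positive cells and in 0 zero cells. Of 15 genes of cholesterol synthesis and lipid handling 0 were higher and 5 lower (Fdft1, Fdps, Lss, Abcg1 and Apoc1). Of 23 genes of the CDK inhibitor and quiescence list 2 were higher and 2 lower (Klf2 and Klf4), with a median of -0.080. The higher ones, Cdkn2c and Cdkn2d, named after their values were seen, stood at 4.33 ± 2.96 and 3.55 ± 1.01, and were seen in 22.2% and 13.9% of positive cells. Growth factor receptor and signal genes had 1 of 21 higher and 5 lower, and oxidative phosphorylation 1 of 24 and 2.

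Markers of border-associated macrophages, which lie in the meninges and around vessels, were high in a few positive cells. Of 10 measured, Mrc1, Pf4 and Ms4a7 were called higher and Stab1 lower. All 6 of Lyve1, F13a1, Cd163, Ms4a7, Cbr2 and Pf4 were seen in 2 positive cells, 1 of the hippocampus and 1 of the visual cortex, and in 0 zero cells. At most 2 were seen in any other cell, and 31 of 36 positive and 59 of 62 zero cells held none. The hippocampal cell held 5715 TPM of the chemokine gene Pf4 and 1064 of the hyaluronan receptor gene Lyve1, with 412 TPM of P2ry12. The cell of the visual cortex held 11212 and 663 TPM, with 1797 of P2ry12, while Sall1 and Tmem119 were listed at 0 in it. The summed level of the whole list ranged from 0 through 463 to 24945 TPM in positive and from 0 through 474 to 11055 in zero cells. Without those 2 cells, left out after the data were seen, 646 genes were called higher and the median of the cell cycle lists was again 1.97. Mrc1, the mannose receptor gene, was seen in 31 of 36 positive and 46 of 62 zero cells, so its level was not limited to them.

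The same split was made in younger cells, whose values had no part in the ranking of genes at P7. They too were split by Mki67, so higher levels of its mitotic partners there are not independent evidence. Mki67 was at 1 TPM or more in 62 cells (42.5%) at embryonic day E12.5 and in 28 cells (22.2%) at E16.5, both from whole brain. At E18.5 the share was 2 of 21 cells in the hippocampus, 9 of 50 in the thalamus and 7 of 22 in the visual cortex. The median number of genes seen was 4646 at E12.5 and 4858 at E16.5 against 2240 at P7, and the samples differ in age, region and library layout, which cannot be told apart. At E12.5, 34.6% of measured genes were called higher and 22.6% lower, and at E16.5 36.1% and 29.9%. With 1 sample at each of these ages a call needed no agreement of regions. The cause of the larger shares was not tested. All 10 genes named higher by rank at P7 were called higher at both ages. Of the 37 genes named higher in all, 29 were called higher and 1 lower at E12.5, and 32 and 0 at E16.5. Of the 10 named lower by rank, 1 was called higher and 2 lower at E12.5, and 5 higher and 4 lower at E16.5. Of the 44 named lower in all, 1 was called higher and 5 lower at E12.5, and 8 higher and 15 lower at E16.5. Spp1 was lower at both, with log2 ratios of -1.84 and -8.36. At E18.5, 0 of the 37 genes named higher at P7 were called higher and 0 lower, and of the 10 named lower by rank 2 were lower, 0 higher and 1 not measured. Of all genes measured at E18.5, 2.12% were called higher and 7.31% lower, and a call needed the hippocampus with its 2 positive cells to agree. The 10 genes named higher by rank had average log2 ratios there from 0.72 (Bub1) to 4.65 (Aurka), without the same sign in every region. Others of the 37, such as Mrc1 at -3.07, lay below 0.

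Licensing and fork genes were mostly called higher at E12.5 and E16.5. At E12.5 28 of 46 measured genes were called higher and 2 lower, with a median of 0.77, and at E16.5 39 of 45 and 1, with a median of 2.18. Mcm2 had log2 ratios of 1.25 and 3.53 there. The 4 mitosis lists had medians of 2.89 at E12.5, 3.39 at E16.5 and 3.54 at P7. All measured genes had medians of 0.18, 0.11 and -0.40 in the same order. At E18.5, averaged over the 3 regions, 2.12% of genes were called higher and 7.31% lower, and among 95 mitosis genes 4 were higher and 1 lower, around a median of 2.03. The E18.5 hippocampus had 2 positive cells and a median of 372 genes seen. With the thalamus and visual cortex only, 24.5% of all genes were called higher and 18.4% lower. In that pair of regions, chosen after the data were seen, 66 of 98 mitosis genes were higher, and their median was 2.90. Licensing and fork genes were higher in 11 of 40 cases and lower in 8, and their median was 0.27. None of these differences between ages was tested.

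**Figure D5:**
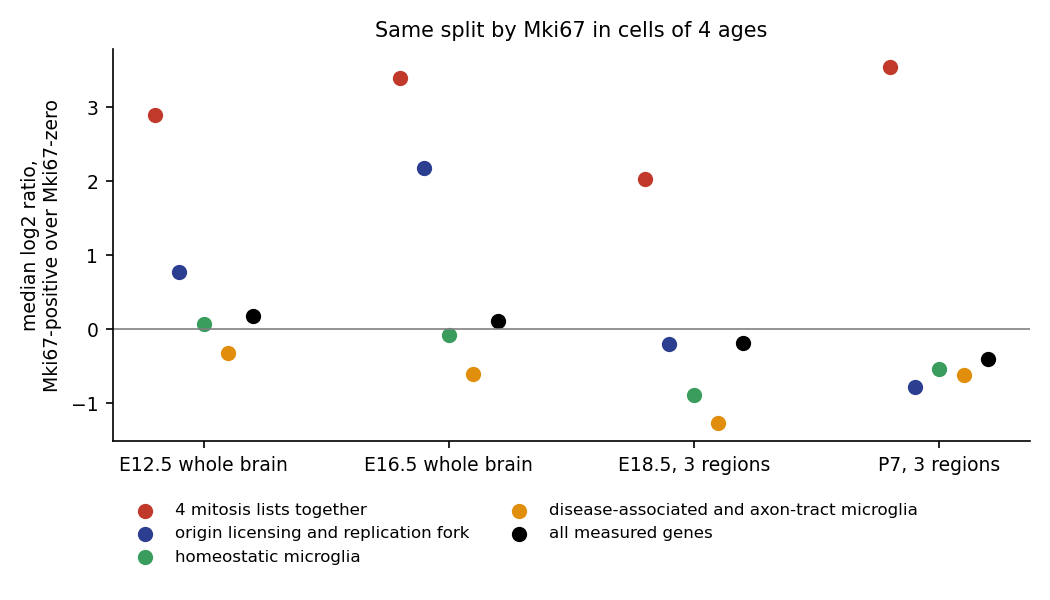
Median log2 ratio (y axis) of gene lists in Mki67-positive over Mki67-zero cells at 4 ages (x axis), with all measured genes in black. The mitosis lists lie between 2.03 and 3.54 at all ages, while origin licensing and replication fork genes lie at 0.77, 2.18, -0.19 and -0.79.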

How the data were processed

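Single microglia had been captured on a C1 chip and sequenced from Nextera XT libraries, per the labels' protocols. The authors deposited 1 table of TPM values per gene and cell, and the submitters' processing notes name RSEM 1.2.19, Seurat and the build GRCm38. TPM sums to between 997939 and 1000000 in each P7 cell and keeps no read depth, so no count test was used. Means of TPM were compared within each region as log2(mean + 1 TPM) and averaged over the 3 regions. A mean of 5 TPM in either group made a gene measured.

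Groups came from the labels and from Mki67 at 1 TPM or more against exactly 0 TPM. The members and gene lists were chosen with earlier results of these data known. With no animals named there is no test, and SDs are over regions. Named genes reached 50 TPM and 25% of cells in their higher group, with the same sign in every region and for the difference of mean log2(TPM + 1). They are the 10 in each direction with the largest smallest-of-3 ratio, leaving out mitochondrial, ribosomal, predicted, pseudogene, Y-linked and Xist entries, and up to 4 from each list by size of ratio. Gene positions are from GENCODE M21 (GRCm38). The code for the ratio was checked on zero cells dealt at random into a pair of groups, with chosen genes multiplied by known folds. That checks the arithmetic and says nothing about false calls. Python 3 with pandas, scipy and matplotlib was used. Alternatives are in the closing section.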

Additional observations from a re-analysis of the deposited data

Results flagged for a closer look

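Gene lists were singled out where the medians had one sign in all 3 regions at P7 and the opposite sign at E12.5 and E16.5. The median of origin licensing and replication fork genes was -0.79 at P7 (-1.01 in the hippocampus, -0.09 in the thalamus and -0.68 in the visual cortex) and was above 0 at E12.5 (0.77) and E16.5 (2.18). Its P7 median was 0.093 for the difference of mean log2(TPM + 1). The median of the 11 measured glycolysis genes was -1.13 at P7 (-0.28, -1.24 and -2.59 in the same order of regions) and was 0.34 at E12.5 and 0.20 at E16.5. Of these 11 genes 1 was called higher and 3 lower at P7, and their median was -0.23 for the difference of mean log2(TPM + 1). Neither difference was tested, and all measured genes had a median of -0.40 at P7 against 0.18 and 0.11 at the earlier ages. Within the regions at P7 all measured genes had medians of 0 in the hippocampus, -0.14 in the thalamus and -0.31 in the visual cortex.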

How the results depend on the processing

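Depth is unknown in TPM, 9 to 15 positive cells stand behind each regional mean, and 1 cell can set the mean of a gene. The main values were 709 genes higher, 1432 lower, and medians of 1.97 (all cell cycle lists), -0.53 (homeostatic microglia) and -0.61 (disease-associated and axon-tract microglia). Genes higher numbered 425 with Mki67 at 100 TPM or more, 3093 with regions pooled and 287 with the highest cell of each group left out. Genes lower numbered 517 for the difference of mean log2(TPM + 1), 3856 with regions pooled and 952 with equal cell numbers. Leaving out 1 region gave 1212 to 1696 genes higher and 2268 to 2608 lower, where a call needed agreement of 2 regions and not of 3. The cell cycle median was 0.79 for the difference of mean log2(TPM + 1) and 1.87 to 2.24 without 1 region. Without 1 region the homeostatic median was -0.69 to -0.10, the latter without the visual cortex, and the disease-associated median -0.86 to -0.35. The main call of 1432 genes lower kept 371 of them, and that of 709 genes higher kept 445, for the difference of mean log2(TPM + 1). With the highest cell of each group left out, 496 of the 709 and 770 of the 1432 were not called again. Reversed signs were few. The median of origin licensing and replication fork genes was 0.093 for the difference of mean log2(TPM + 1), Siglech was 0.26 with median-ratio rescaling, Ier5 was -0.19 with Mki67 at 100 TPM or more, and Stab1 was 0.21 with equal cell numbers. The other 78 of 81 named genes kept their sign, or were within 1.5-fold at the start, in all 16 alternatives. The causes were not tested. No paired analysis was possible because the replicate numbers only name cells.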
